A study of Mus musculus with 2 samples.

Results

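The regions described here are 2414 short stretches of the mouse autosomes, each covered by exactly 4 array probes, in which the probes were the shortest that the array design used. Probes separated by gaps of at most 500 bp were joined to runs by their mm8 positions, and of the 9391 autosomal runs of exactly 4 probes those with a mean probe length in the lowest 25%, at most 48.25 nt, were kept. The other 6977 autosomal 4-probe runs served as the comparison, and the arrays held 21347 runs of any size in all. No measured value entered the choice. Every one of the 2414 short-probe runs was tested, 2356 of them with all 4 probes and 58 with 3 probes after spots with an outlier flag were left out.

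Hypothalamic DNA of female mice at postnatal day 21 (P21) was hybridised together with that of newborn mice (P0) on 2 arrays read in 2 colours. Both ages shared strain, a C57BL/6J and C3H/HeJ mixture, and genotype, non-agouti. In array A the P0 DNA carried the red dye Cy5 and the P21 DNA the green dye Cy3, and in array B the dyes were exchanged. The series' design text calls the 2 arrays biological replicates, but the sources used here give no number of animals. They do not say whether DNA was pooled, so every p-value below rests on the spread between these 2 arrays. Each run leaves 1 residual degree of freedom. The main limma fit combined a run's own spread with a prior variance over all 18755 runs tested, worth 5.59 degrees of freedom. The hypothalamus is a mixture of neurons, glia and vascular cells, and a change in the share of a cell type cannot be told apart from a change of methylation within cells. The labelled tissue could not be checked against marker genes, since DNA was measured and the probes carry no gene names.

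DNA methylation in mammals sits mainly on the cytosine of CG dinucleotides. In CG-dense stretches, many of them CpG islands at gene starts, the DNA of most tissues is largely unmethylated, while CG-poor DNA is largely methylated. The brain keeps adding and removing methylation after birth, while neurons mature and glial cells are still being formed. The assay used here, a methylation-specific amplification microarray, digests DNA with SmaI and then XmaI, which recognise the same GC-only site, CCCGGG. SmaI cuts unmethylated copies to blunt ends, XmaI then cuts the remaining, methylated copies to sticky ends, and adaptors join the sticky ends for amplification by PCR. A P21 over P0 ratio above 0 on the log2 scale is therefore more product at P21 from fragments whose end sites were methylated. It is no methylation percentage. Short probes point to GC-rich DNA, because array designs shorten probes to even out their melting temperature, but the GC content itself was not measured here.

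The probes of these runs were close to uniform in length. Of their 9656 probes, 77.4% were 45 nt long, the shortest length on the array, whereas 14.2% of the probes in the other 4-probe runs were. In 1070 of the 2414 runs every probe was 45 nt long, and in the other 1344 the mean length was 45.25 to 48.25 nt. The short-probe runs were also compact. Their median span from the first to the last base was 373 bp (quartiles 274 and 532, range 134 to 1424 bp), against 685 bp (quartiles 464 and 950) in the other 4-probe runs. The median gap between neighbouring probes was 57 bp against 140 bp, and 8.89% of neighbouring probes overlapped, against 3.71%. Overlapping probes read partly the same bases, so the 4 probes of a run are repeated readings of 1 place and not replicates of it.

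Short-probe runs were present on all 19 autosomes and made up between 19.2% (chromosome 13) and 30.8% (chromosome 17) of the 4-probe runs of a chromosome. The nearest neighbouring run lay at a median distance of 22392 bp, and 30.0% had one within 10000 bp. The other 4-probe runs had a median distance of 23716 bp and 29.2% within that limit.

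The signal of the short-probe runs was above background nearly everywhere. Of their probes, 98.9% were well above background for P21 on array A and 97.8% on array B, and 99.1% and 97.9% for P0. The corresponding shares in the other 4-probe runs were 93.6% and 93.4% for P21 and 94.7% and 93.6% for P0. No short-probe run had all of its probes below background at either age on both arrays. No spot of the arrays was saturated.

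Their brightness was nonetheless concentrated at moderate values. The mean log2 processed signal of a run, taken over both ages and both arrays, had a median of 9.43 (quartiles 7.98 and 11.9) in the short-probe runs and of 11.1 (quartiles 8.22 and 13.1) in the other 4-probe runs. Within the short-probe runs the median was 8.57 where every probe was 45 nt long and 10.48 where the mean was longer. Brightness also depends on how well a probe hybridises, so these values describe the probes and are no amounts of DNA.

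**Figure D1:**
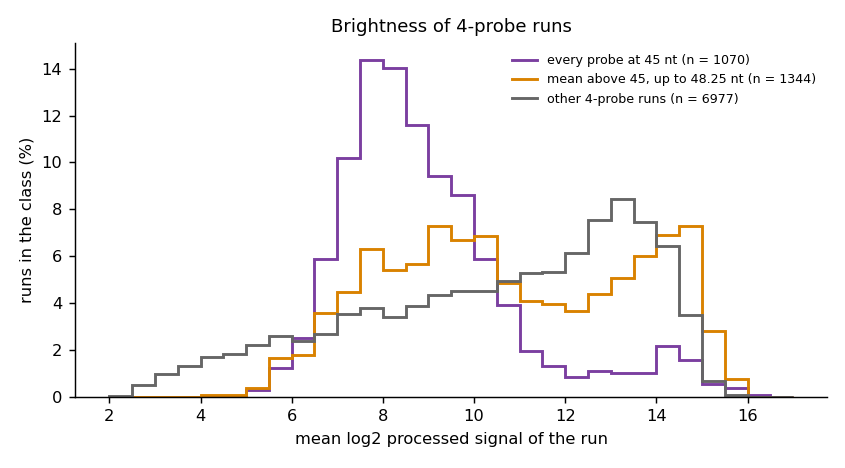
Share of runs (%) in steps of 0.5 of the mean log2 processed signal, for the 1070 runs with every probe at 45 nt, the 1344 other short-probe runs and the 6977 other 4-probe runs. The first class has a median of 8.57 and a single main peak, while the second, with a median of 10.48, is spread over a wide range.

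The mean P21 over P0 ratio of the short-probe runs lay close to 0 on both arrays. On the log2 scale array A gave 0.06 and array B 0.09, a mean of 0.074 ± 0.021 (SD, n = 2 arrays). The other 4-probe runs had 0.066 and 0.039, a mean of 0.053 ± 0.019 (SD, n = 2). Short-probe minus other runs gave -0.0069 (array A) and 0.050 (array B), values of opposite sign, and with 2 arrays an exact test cannot give a p below 0.5. Most short-probe runs were near 0. The median size of a run's mean log2 ratio was 0.123, against 0.180 in the other 4-probe runs, and 74.9% of the short-probe runs lay within 0.25 of 0, against 62.3%.

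A minority of the short-probe runs did change between the ages, and most of those had more methylation-dependent product at P21. By limma with an adjusted p under 0.05 over all 18755 runs tested, 166 short-probe runs were higher at P21, or 6.88% of them, where 7.66% of all runs tested and 9.19% of the other 4-probe runs were called higher. Lower at P21 were 34 short-probe runs, or 1.41%, where 4.0% of all runs tested and 4.07% of the other 4-probe runs were. The exact 95% intervals, which cover counting error only and treat runs as independent, were 5.9% to 7.96% for the higher share and 0.977% to 1.96% for the lower share of the short-probe runs, and 8.52% to 9.89% and 3.62% to 4.56% for those of the other runs. With normexp background correction alone the order of the higher shares was turned. Called higher were then 2.36% of the short-probe runs, 1.48% of all runs tested and 2.18% of the other 4-probe runs. That setting was centred on each array's median but had no dye normalisation. Its array B ratio was above 0 in 0% of the short-probe runs with a mean log2 signal up to 8. Above a signal of 13 it was above 0 in 99.1%. Higher runs made up 83.0% of the calls among the short-probe runs, 69.3% among the other 4-probe runs and 65.7% among all runs tested. In the short-probe runs that split was 74.1% after loess, 72.4% with probes well above background, 70.3% with the trend and robust settings of limma, 94.6% with the median of the probes and 100% with normexp background correction alone.

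The number of lower calls varied with the processing, in the short-probe runs and over all runs tested. Their number was 68 after loess normalisation within each array and 0 with normexp alone (3 with an unadjusted limma p under 0.05), and 7 with the median of the probes in place of the mean, while the number of higher calls under the same settings was 195, 57 and 122. Of all runs tested, 5.85%, 0.0107% and 1.4% were called lower under these 3 settings, against 4.0% with the deposited ratios. Without an adjustment, 384 of the 2414 short-probe runs (15.9%) had a limma p under 0.05, beside 26.5% of the other 4-probe runs and 24.7% of all runs tested.

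A rule of size was set beside limma, since 2 arrays leave 1 residual degree of freedom per run. It asks that the size of the mean log2 ratio reach 1 and that each array show the same sign with a change of 1.5-fold or more. By that rule 86 short-probe runs were higher at P21 (3.56%, beside 3.71% of all runs tested and 4.76% of the other 4-probe runs) and 3 were lower (0.124%, beside 0.501% and 0.430%). All 86 and all 3 had passed limma as well. When the red over green ratios were held to it without turning array A, where an effect of age has opposite signs on the 2 arrays, 2 short-probe runs passed, chr10:125614728-125615013 and chr2:130851204-130851817, and 3 of the other 4-probe runs.

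The signals show in which direction the called runs sat. In the 166 runs called higher, the median log2 signal of P0 had the values 10.6 (array A) and 10.4 (array B), and that of P21 was 12.2 and 11.9. In the 34 runs called lower, P0 had 9.59 and 9.55 and P21 had 8.85 and 8.53. In the 2214 runs not called, P0 had 9.35 and 9.23 and P21 had 9.34 and 9.26. The call itself sorts runs by P0 against P21, so medians at a single age partly follow from it. Over both ages and both arrays the median log2 signal was 11.2 in the runs called higher and 9.06 in those called lower. In all short-probe runs it was 9.43. The mean log2 ratio of the runs called higher had a median of 1.08 and ranged from 0.53 to 3.40, and that of the runs called lower had a median of -0.75 and ranged from -0.53 to -1.40. In 163 of the 166 higher runs and 29 of the 34 lower runs every probe had the run's direction on both arrays. Among the comparison runs this held in 616 of the 641 called higher and 222 of the 284 called lower. The call rests on the mean of the same probes, which itself favours a shared direction. In 195 of the 200 called short-probe runs every probe carried the flag for well above background at both ages on each array.

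Large gains were few and large losses fewer. Of the 2414 short-probe runs, 88 were called higher by limma and had a mean log2 ratio of at least 1. Of these, 19 had at least 2, and 1 passed 3. The largest mean of a short-probe run that was not called was 1.18. On the lower side 3 called runs passed 1 in size and none (0 runs) passed 2. Among the 6977 other 4-probe runs the corresponding counts were 333, 67 and 12 higher and 31, 0 and 0 lower.

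The largest gain was in chr2:60353846-60354482, a run of 637 bp with a mean probe length of 45.5 nt. Its mean log2 signals at P0 were 11.5 (array A) and 11.2 (array B), and at P21 14.96 and 14.5. The log2 ratios of arrays A and B were 3.45 and 3.34, a mean of 3.40 ± 0.078 (SD, n = 2), or 10.52-fold, with an adjusted p of 0.000196 by limma. Both P21 values stood far above both P0 values. Its 4 probes had log2 ratios of 3.77, 3.30, 3.55 and 3.18 on array A and of 2.76, 3.55, 3.48 and 3.57 on array B, in the order of their positions, so that every probe of the run showed the gain.

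The second largest was in chr19:6897296-6897932, also 637 bp long, in which every probe was 45 nt. P0 had 9.42 on array A and 9.60 on array B, and P21 had 12.6 and 12.1. The log2 ratios of arrays A and B were 3.21 and 2.54, a mean of 2.87 ± 0.48 (SD, n = 2), or 7.32-fold, with an adjusted p of 0.000404 by limma. This run had the widest gap between the arrays among the 10 highest. Its first probe by position was the dimmest and had the smallest ratios, 2.32 and 2.01, while its other probes lay between 3.41 and 3.59 on array A and between 2.49 and 3.06 on array B.

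Chromosome 11 held 3 of the 10 highest runs. In chr11:102557435-102557784, 350 bp long, P0 had 10.8 and 10.6 and P21 had 13.7 and 13.4 on arrays A and B. Its log2 ratio was 2.86 on either array, or 7.24-fold, with an adjusted p of 0.000231 by limma. The run that precedes it on the array, chr11:102454739-102455320, had 10.4 and 10.2 at P0 and 12.7 and 12.7 at P21, a log2 ratio of 2.30 and 2.58 with a mean of 2.44, or 5.43-fold. A distance of 102114 bp with no other run (0 runs between them) separates these 2 runs. The third, chr11:118425467-118425858, had 9.505 and 9.45 at P0, 12.2 and 11.9 at P21, and a mean log2 ratio of 2.60.

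The remaining 5 of the 10 were spread over other chromosomes. In chr8:108235886-108236268, P0 had 9.71 and 9.35 and P21 had 12.5 and 12.1, a mean log2 ratio of 2.79 or 6.90-fold, which was 2.17 with normexp and loess. In chr14:24151058-24151434, P0 had 10.3 and 10.1 and P21 had 13.1 and 12.6, a mean of 2.67. In chr5:143552900-143553266, the other run of the 10 with every probe at 45 nt, P0 had 11.8 and 11.7 and P21 had 14.4 and 14.3, a mean of 2.60. The 2 ages did not overlap in any of them.

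In chr2:156466430-156466941, P0 had 9.74 and 9.55 and P21 had 12.4 and 12.1, a mean log2 ratio of 2.56. The dimmest of the 10 was chr7:99226164-99227055, which spans 892 bp. Its P0 signal was 7.74 and 7.71 and its P21 signal 10.3 and 10.1, a mean log2 ratio of 2.45. It was the only 1 of the 10 that lost its call with normexp and loess together, where its ratio was 1.44 and its adjusted p by limma 0.0575. Over all 10 runs the adjusted p by limma lay between 0.000196 and 0.000404 in the deposited ratios, and with normexp and loess the ratios lay between 1.44 and 3.18.

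**Figure D2:**
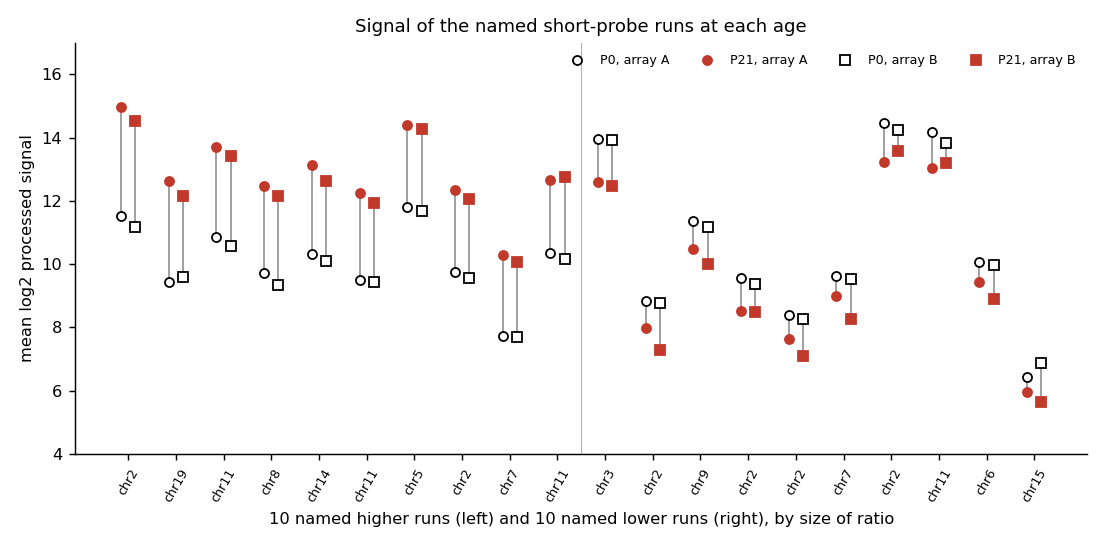
Mean log2 processed signal of the 10 highest (left) and the 10 lowest (right) called short-probe runs, ordered by the size of the ratio and labelled by chromosome, with P0 in open and P21 in filled symbols, array A as circles and array B as squares. The pairs on the left are 2.44 to 3.40 apart in mean log2 ratio, and those on the right 0.86 to 1.40 apart in the opposite direction.

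The largest loss was in chr3:88715413-88715708, a bright run of 296 bp with a mean probe length of 47.75 nt. P0 had 14.0 on array A and 13.9 on array B, and P21 had 12.6 and 12.5. The log2 ratio was -1.35 and -1.46, a mean of -1.40 ± 0.072 (SD, n = 2), or 2.65-fold lower at P21, with an adjusted p of 0.00111 by limma. Its 4 probes had ratios between -1.24 and -1.51 on array A and between -1.37 and -1.58 on array B. With normexp and loess the mean was -1.43 and the call held, while with normexp alone it was -1.16 with an adjusted p of 0.19 by limma.

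Of the 10 runs with the largest losses, 4 lay on chromosome 2. The first, chr2:154098849-154099565, had a log2 ratio of -0.83 on array A and -1.47 on array B, a mean of -1.15. The second, chr2:29994264-29995552, the longest of the 10 at 1289 bp, had -1.05 and -0.89, a mean of -0.97. The third, chr2:165972270-165972599, the only 1 of the 10 with every probe at 45 nt, had -0.75 and -1.18, a mean of -0.96. The fourth, chr2:91757982-91758383, had -1.24 and -0.66, a mean of -0.95, and was bright, with 14.5 and 14.2 at P0 and 13.2 and 13.6 at P21. In the 3 dimmer of these 4 runs P0 lay between 8.27 and 9.56 and P21 between 7.09 and 8.51.

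The other losses were of similar size. In chr9:106156818-106157112 the log2 ratio was -0.89 and -1.17, a mean of -1.03, and this run, with those on chromosome 3 and at chr2:154098849-154099565, completed the 3 that passed the rule of size. In chr7:98374077-98374428 it was -0.64 and -1.27, in chr11:120426191-120426469 -1.14 and -0.62, and in chr6:55247953-55248261 -0.64 and -1.08. The faintest was chr15:79836718-79837568, with 6.44 and 6.86 at P0 and 5.96 and 5.64 at P21 and a ratio of -0.49 and -1.23. Only 2 of its 4 probes were well above background in every channel, and with normexp and loess its ratio was -0.10.

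As a group these 10 losses were closer to the threshold than the gains. Their adjusted p by limma lay between 0.00111 and 0.0356, 10 of 10 were called after loess, 7 of 10 with normexp and loess, 5 of 10 with the median of the probes, and 0 of 10 with normexp alone (3 with an unadjusted limma p under 0.05), where their ratios still lay between -1.16 and -0.42. With the median of the probes the 5 without a call were the runs on chromosomes 7 and 15 and, on chromosome 2, chr2:154098849-154099565, chr2:165972270-165972599 and chr2:91757982-91758383, with adjusted p by limma between 0.052 and 0.12. The 3 that lost the call with normexp and loess were the faint run on chromosome 15 (adjusted p = 0.61 by limma), chr2:154098849-154099565 (a ratio of -0.46, adjusted p = 0.075 by limma) and chr2:165972270-165972599 (-0.34, adjusted p = 0.14 by limma).

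The agreement of the 2 arrays was low over the short-probe runs as a whole. The log2 ratio had the same sign on both arrays in 51.1% of the short-probe runs and in 69.1% of the other 4-probe runs. Across runs, which share the 2 hybridisations and are not independent replicates, Pearson's r between the arrays was 0.634 and Spearman's rank correlation 0.190 in the short-probe runs, against 0.795 and 0.576. The median difference in size between the 2 arrays was 0.259 in the short-probe runs and 0.188 in the others, while the median spread among the probes of a run was of like size in both, an SD of 0.172 against 0.159 (array A) and of 0.168 against 0.153 (array B). In the deposited ratios, pooled over brightness, the probes of a short-probe run therefore lay about as close within an array as those of other runs. By brightness this differed. On array A the SD was 0.197 against 0.287 at a mean log2 signal up to 8, and 0.181 against 0.138 above 13. The 2 arrays lay further apart in the short-probe runs, and also after loess, with a median difference of 0.208 against 0.166. The wider median difference did not hold with normexp and loess, at 0.131 against 0.135, or with normexp alone, at 0.659 against 0.668. The share with the same sign stayed lower in the short-probe runs under all 3 settings. It was 57.4% against 71.1% after loess, 57.5% against 70.5% with normexp and loess, and 32.8% against 41.9% with normexp alone. With normexp and loess Spearman's rank correlation was 0.345 against 0.592.

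**Figure D3:**
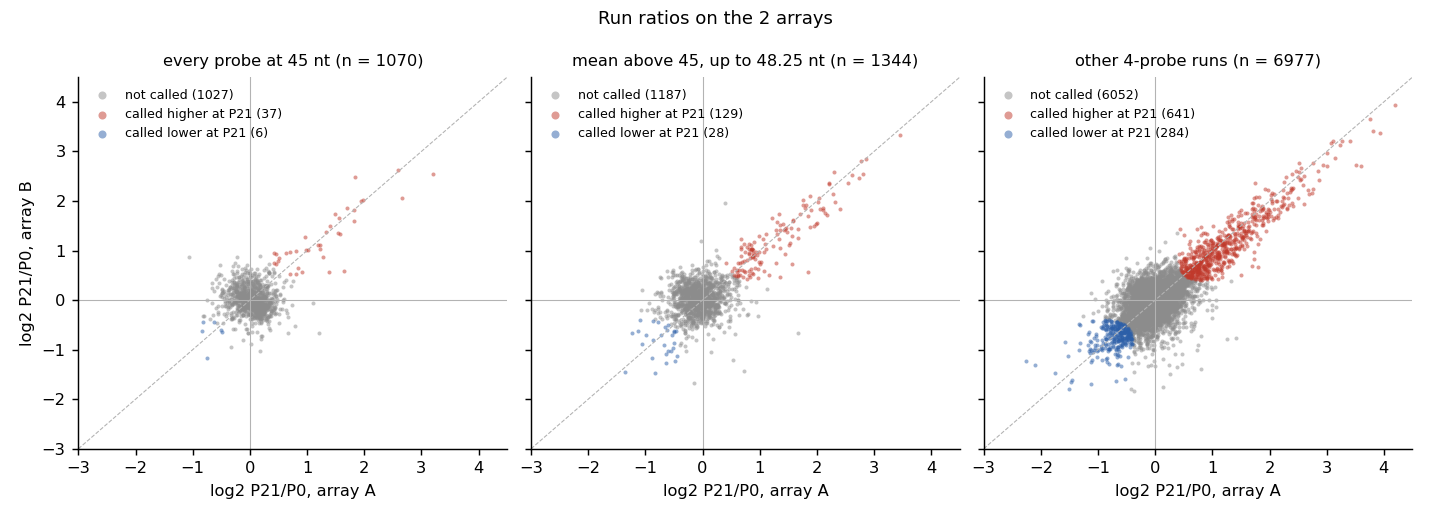
Mean log2 P21 over P0 ratio of each run on array A (horizontal) and array B (vertical), for runs with every probe at 45 nt, the other short-probe runs and the other 4-probe runs, with limma calls in colour and the line of equality dashed. The uncalled runs with every probe at 45 nt form a round cloud about 0. The 37 runs of that class called higher lie along the line, which the call itself favours, since it asks for a small spread between the arrays.

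With the deposited ratios, agreement was higher in each longer class of probes over the whole range of 4-probe runs. The share of runs with the same sign was 43.9% where every probe was 45 nt long, 56.8% at 45.25 to 48.25 nt, 62.8% at 48.5 to 52.5 nt, 69.6% at 52.75 to 56.5 nt and 75.1% at 56.75 to 60 nt. Spearman's rank correlation across runs followed the same order, with -0.058, 0.355, 0.501, 0.592 and 0.669. After loess the shares were 48.5%, 64.5%, 69.6%, 70.5% and 73.4%, the same order, with smaller steps among the 3 longer classes. The rank correlation did not keep it between the 2 longest classes, where it was 0.637 and 0.635 after loess and 0.611 and 0.594 with normexp and loess. In the runs with every probe at 45 nt, the rank correlation was 0.034 after loess and 0.046 with normexp and loess.

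In the deposited ratios the share of lower calls was larger in each longer class, while that of higher calls did not keep this order. Called higher were 37 of the 1070 runs with every probe at 45 nt (3.46%) and 129 of the 1344 at 45.25 to 48.25 nt (9.60%), against 10%, 9.80% and 7.64% in the 3 longer classes. Called lower were 6 runs (0.561%) and 28 runs (2.08%) against 3.79%, 3.89% and 4.56%. The lower shares did not keep this order in other processing. They were 0.935%, 4.32%, 6.25%, 5.21% and 6.03% after loess. With normexp and loess they were 0.28%, 2.75%, 3.15%, 2.15% and 0.804%. At the border of the choice, the 94 runs with a mean of 48.25 nt had mean log2 ratios of 0.03 on array A and 0.13 on array B, and the 125 runs at 48.5 nt, just outside, had 0.03 and 0.09. The sign was the same on both arrays in 58.5% of the runs just inside and 68% of those just outside, 10.6% and 10.4% were called higher, and 3.19% and 5.6% were called lower.

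**Figure D4:**
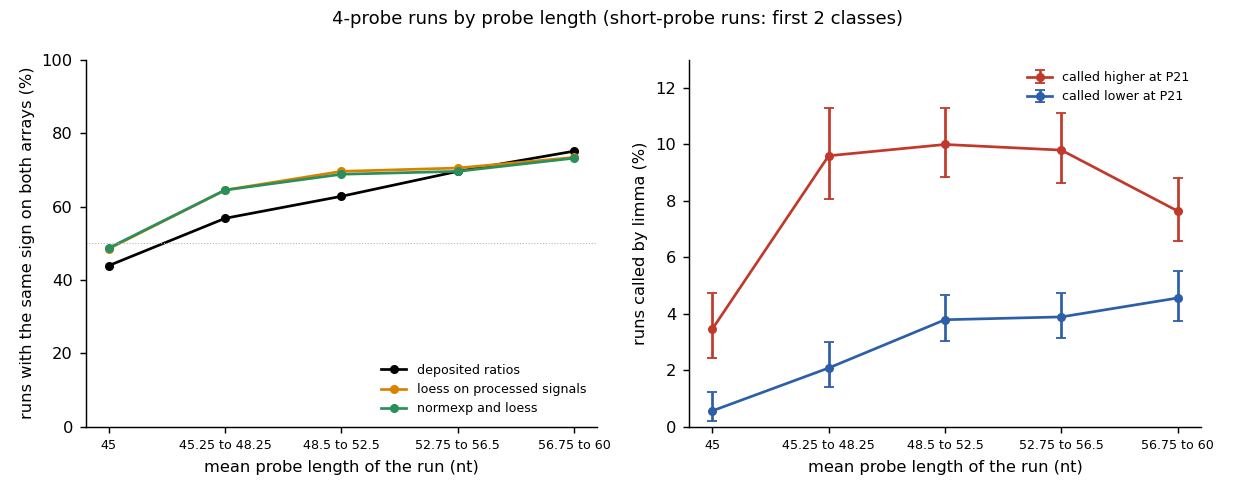
Share of 4-probe runs with the same sign of the ratio on both arrays (left, %, under 3 normalisations) and share called by limma (right, %, exact 95% intervals for counting error only), by mean probe length in nt. The share with the same sign goes from 43.9% to 75.1% with the deposited ratios, and the class with every probe at 45 nt has 3.46% higher and 0.561% lower calls.

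By median, the higher calls in the 45 nt class were not smaller in size than those in the longer class. The lower calls were smaller, with a median of -0.60 in 6 runs against -0.79 in 28 runs. The 37 higher runs had a median mean log2 ratio of 1.12 (range 0.58 to 2.87) and the 129 higher runs above 45 nt had 1.03 (range 0.53 to 3.40). The median SD over the 2 arrays was 0.171 and 0.115 in these 2 sets. The 6 lower runs with every probe at 45 nt were chr2:165972270-165972599, named above, and chr5:115768058-115768341 at -0.74, chr2:90690362-90691149 at -0.63, chr5:120458371-120458718 at -0.56, chr5:139988377-139989001 at -0.55 and chr9:44130666-44131079 at -0.53. Within single runs, length made little difference: the shortest minus the longest probe gave an average of 0.014 for array A and -0.0042 for array B over the 1337 runs where the lengths differed.

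Brightness moved with these results, and its part in them was not tested. Among runs with a mean log2 signal above 8 and up to 10, the share with the same sign was 52.1% of 804 short-probe runs and 77.9% of 1127 other 4-probe runs. There, 4.60% of the short-probe runs were called higher and 1.62% lower, against 11.3% and 5.50%. Between 10 and 12 the shares with the same sign were 65.2% of 405 and 68.4% of 1403 runs, and 13.8% and 14.0% were called higher. At or below 8 the shares with the same sign were 41.0% of 615 and 72.5% of 1637 runs.

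The brightest short-probe runs went apart between the arrays. The 461 short-probe runs above a mean log2 signal of 13 had a mean ratio of -0.12 on array A and 0.20 on array B, whereas the 129 between 12 and 13 had 0.29 and 0.25. The other 4-probe runs above 13 had 0.03 and 0.19. After loess, which removes a trend of the ratio with brightness within an array, the short-probe runs above 13 had -0.02 and 0.04 and the share with the same sign went from 43.6% to 65.9%. In the other 4-probe runs above 13 it went from 59.5% to 67.5%. Of the 129 short-probe runs between 12 and 13, 32 were called higher (24.8%), against 124 of the 955 other 4-probe runs (13%). Above 13 it was 32 of the 461 (6.94%) against 121 of the 1855 others (6.52%). From 12 to 13 the short-probe runs thus had the larger share, the reverse of the order over all brightness classes together. The same held from 11 to 12 (18.9% against 13%), but not from 10 to 11 (11.1% against 15.1%). Above 13 the exact 95% intervals, for counting error only, overlapped, at 4.8% to 9.66% and 5.44% to 7.74%. These differences were not tested.

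**Figure D5:**
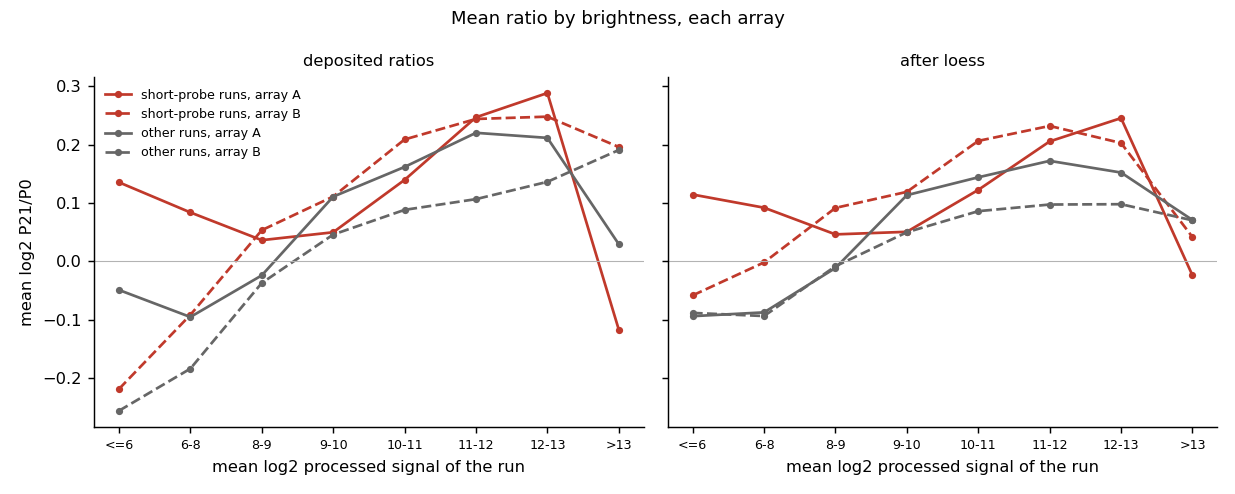
Mean log2 P21 over P0 ratio of 4-probe runs in classes of the mean log2 processed signal, on array A (solid) and array B (dashed), for short-probe runs (red) and the others (grey), with the deposited ratios (left) and after loess (right). Above 13 the short-probe runs have -0.12 on array A and 0.20 on array B in the deposited ratios, and -0.02 and 0.04 after loess.

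The 3 brightest short-probe runs had opposite signs on the 2 arrays. The brightest, chr13:65761234-65761582, with every probe at 45 nt, had a log2 ratio of -1.06 on array A and 0.87 on array B. Its red channel was the brighter one on both arrays: P0 had 16.6 and P21 15.5 on array A, where P0 was red, and P0 had 15.6 and P21 16.5 on array B, where P21 was red. The other brightest runs, chr3:53566441-53566996 and chr5:131724290-131724985, had -0.45 and 0.33, and -0.51 and 0.60, which is the same pattern. None of the 3 was called by limma (adjusted p between 0.908 and 0.950).

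The 3 short-probe runs with the widest difference between arrays, among those above a mean log2 signal of 8, include that run on chromosome 13 and the 2 that passed the rule of size without turning. In chr2:130851204-130851817 the arrays A and B had log2 ratios of 1.67 and -0.67. Its P0 signal was 12.7 and 13.02, and its P21 signal 14.4 and 12.4, a wider difference between the arrays for the P21 DNA than for the P0 DNA. All 4 probes showed it, with ratios between 1.59 and 1.78 on array A and between -0.57 and -0.92 on array B. In chr10:125614728-125615013 the ratio was 0.72 and -1.43, with P0 at 8.23 and 8.41 and P21 at 8.95 and 6.97. Whether the DNA samples or the dyes of the 2 arrays account for such runs cannot be told apart, since each array had 1 dye orientation.

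Short-probe runs with a longer span held a larger share of higher calls. The share was 3.70% of 433 runs up to 250 bp, 6.97% of 933 between 250 and 400 bp, 7.51% of 599 between 400 and 600 bp and 8.91% of 449 above 600 bp. The other 4-probe runs had 5.02%, 7.78%, 10.6% and 9.32% in the same classes. In order of position, the 4 probes of the short-probe runs had mean log2 ratios of 0.057, 0.056, 0.056 and 0.060 on array A and of 0.075, 0.093, 0.109 and 0.087 on array B.

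The calls were unevenly spread over the chromosomes. Called higher were 26 of 214 short-probe runs on chromosome 11 (12.1%) and 23 of 196 on chromosome 4 (11.7%), where the other 4-probe runs had 8.57% and 10.4%. Chromosome 18 had 0 of 56 by limma (3 with an unadjusted p under 0.05), and chromosomes 3, 6 and 13 had 1 of 100, 1 of 96 and 1 of 73. The other 4-probe runs of those 4 chromosomes had 17 of 217, 29 of 353, 26 of 342 and 27 of 308. The single higher runs were chr3:89951155-89951413, with a log2 ratio of 0.70 on array A and 0.47 on array B, chr6:83127487-83128028, with 1.41 and 1.503, and chr13:54834345-54834655, with 1.94 and 1.501. Differences between chromosomes were not tested.

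A few windows of 1 Mb held several gains among the short-probe runs. Of all short-probe runs 6.88% were called higher, beside 9.19% of the other 4-probe runs and 7.66% of all runs tested. Only short-probe runs were counted within the windows, so whether their other runs rose as well was not examined. Of the 1101 windows of 1 Mb that held a short-probe run, 128 had 1 run called higher, 16 had at least 2, and 6 had 3, the most in any window. On chromosome 7 from 30 to 31 Mb, 3 of 6 short-probe runs rose: chr7:30762931-30763447 with log2 ratios of 2.10 on array A and 1.82 on array B, chr7:30144604-30145519 with 1.53 and 1.15, and chr7:30235364-30235644 with 0.70 and 0.96. On chromosome 11 from 57 to 58 Mb, 3 of 4 rose: chr11:57400252-57401214 with 1.81 and 1.92, chr11:57460475-57461029 with 0.78 and 1.06, and chr11:57643162-57643389 with 0.84 and 0.63. Over all 6 and all 4 runs of these 2 windows the mean log2 ratio was 0.77 and 0.68, and 0.71 and 0.79, on arrays A and B.

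On chromosome 8 from 123 to 124 Mb, 3 of 8 rose, led by chr8:123012943-123013554 with 1.87 and 2.11, a 3.98-fold gain, before chr8:123439523-123440218 with a mean log2 ratio of 0.65 and chr8:123412651-123413425 with 0.60. On chromosome 4 from 151 to 152 Mb, 3 of 8 rose, led by chr4:151002926-151003687 with 1.58 and 1.61, before chr4:151832305-151832653 with a mean of 0.71 and chr4:151118403-151118747 with 0.60. On chromosome 2 from 164 to 165 Mb, 3 of 5 rose, with mean log2 ratios of 1.16 in chr2:164886257-164886914, 0.98 in chr2:164080335-164080695 and 0.95 in chr2:164688426-164688884. The fullest window, on chromosome 10 from 79 to 80 Mb, held 16 short-probe runs, of which 3 rose, chr10:79903743-79904052 at 1.46, chr10:79015409-79015639 at 1.45 and chr10:79589320-79589959 at 0.96.

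Other windows rich in short-probe runs held no run called higher. On chromosome 4 from 140 to 141 Mb 0 of 13 runs were called higher by limma (2 with an unadjusted p under 0.05) and 1 was called lower, chr4:140193706-140194914 with -0.49 and -0.65. On chromosome 8 from 73 to 74 Mb 0 of 11 were called by limma in either direction (0 with an unadjusted p under 0.05), and their mean log2 ratios on arrays A and B were -0.038 and -0.22. These windows were chosen after their values were seen, and no test of clustering was made.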

How the data were processed

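The members and lists were chosen with earlier results of these data known. Both arrays lay on 1 slide. Per the file headers, the deposited log10 ratios (red divided by green) follow background subtraction, spatial detrending and a linear dye normalisation; Feature Extraction is 10.5.1.1 in the headers and 9.1.3.1 in the submitters' processing notes. The deposited intensity values are processed signals, per the file headers, and the deposited flags mark outlying, saturated or well-above-background spots. The authors' series matrix holds the same log10 ratios. Here, of 90535 non-control spots (90526 probes), 800 flagged ones were left out. Ratios were changed to log2, turned to P21 over P0, centred on each array's median, which was already 0 so that no value moved, and averaged per run. The 18755 runs with at least 2 probes were fitted with limma 3.58.1 (lmFit and eBayes, Benjamini-Hochberg, 0.05) in R 4.3.3 (files read by data.table, version 1.17.8) and tested on simulated data. Tables and plots used Python 3.11.15, pandas 2.3.3, numpy 2.4.6, scipy 1.17.1 and matplotlib 3.10.9.

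Runs are named by mm8 position: the 10 highest and 10 lowest called with 1 sign on both arrays, the 3 with the widest array difference above a log2 signal of 8, the 3 brightest, and the 3 shortest, which could not be picked because 1070 tie at 45 nt. Runs in 1 Mb windows and single runs on a chromosome were chosen after their values were seen. Of non-control spots, 93.8% to 95.3% were well above background in each channel. With 2 arrays, their number limits the precision. Probe sequences and gene names were not used here. The gene annotation given is on another build. The alternatives (centring, loess, normexp with offset 50, run gap, length threshold, test settings) are in the closing section.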

Additional observations from a re-analysis of the deposited data

How the results depend on the processing

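Over those of the 18 alternative settings that gave limma counts, the higher calls ranged from 37 to 226, against 166. There were 226 with gaps of at most 1000 bp, over more runs, 223 with trend and robust limma and 205 with probes well above background. The smaller counts were 57 under normexp alone, 77 with gaps of at most 250 bp and 37 in the shortest 10% of runs, the last 2 over fewer runs. Ties widen that shortest 10% to the 1070 runs with every probe at 45 nt (11.4%), so it repeats that class. The 34 lower calls became 68 after loess, 0 with normexp alone, 78 with probes well above background, 7 with the median of probes, 17 and 72 with gaps of 250 and 1000 bp, 6 in the shortest 10%, 94 with trend and robust limma and 58 in a fit on 4-probe runs only. The mean ratio of short-probe minus other runs, 0.021, turned to -0.087 with normexp alone, -0.026 with gaps of 250 bp and, in an alternative chosen after seeing the data, -0.012 for runs above a log2 signal of 8. It was -0.0069 without replicate B and 0.050 without replicate A. The size rule gave 43 higher runs with gaps of 250 bp and 21 in the shortest 10%, against 86. Its 3 lower runs became 1 with normexp alone, with normexp and loess and with gaps of 250 bp, 6 with the median of probes and 0 in the shortest 10%, and 8 to 16 without replicate B or A.

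The difference in probe spread turned to -0.011 with normexp and loess, and that in mean brightness to 0.123 with gaps of 1000 bp. The shortest minus longest probe turned to -0.0044 with gaps of 250 bp and ranged from -0.0042 to 0.014 when a replicate was left out. It had no value in the shortest 10%, where all probes are 45 nt. Uncalled named runs that turned were chr10:125614728-125615013 (0.23, normexp and loess), chr13:65761234-65761582 (0.12) and chr3:53566441-53566996 (0.19) with normexp alone, and chr5:131724290-131724985 (-0.017, median of probes). Of the named gains, 128 of 129 values over the settings kept their side of the threshold, and of the losses 110 of 128. Both tallies count the setting without centring, where no value moved, and the series matrix values, which hold the same ratios. The cause of the turns and of the lost calls was not tested. Leaving out an array leaves no residual degree of freedom, so limma counts were not made then. No paired analysis was possible because each array already holds both ages as 1 ratio.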
